A study of Mus musculus with 10 samples.

Results

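Mitochondrial DNA (mtDNA) encodes 37 of the 54232 genes in the count table of P4 testes, and these 37 were taken as every gene on chromosome M. By class they comprised 13 mRNA genes, 2 rRNA genes and 22 tRNA genes. RNA-seq had been performed to compare transcripts between control and *Dis3* cKO testes at postnatal day 4, with 5 libraries per group, and each library came from the pooled testes of 1 mouse. Mice of both groups carried the strain label B6D2F1. *Dis3* cKO males (labelled *Dis3* KO) were *Dis3* F/-; *Ddx4-Cre*, in which Cre acts in male germ cells from embryonic life onwards and removes an internal group of *Dis3* exons. Control males (labelled *Dis3* WT) were siblings of the same litters, and whether they carried Cre or a floxed allele is not given in the sources used here. Because Cre acts in germ cells, the somatic cells of a *Dis3* cKO testis had the F/- genotype, with a single floxed allele left, and a whole-testis library mixes both.

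The mtDNA circle is transcribed from both strands into long precursors. Most mRNAs are separated by tRNAs, and enzymes that cut out the tRNAs also release the mRNAs and rRNAs between them. The 13 proteins are all subunits of the respiratory chain or of ATP synthase and work together with subunits encoded in the nucleus. Testis is a mixture of germ cells and somatic cells, all of which contain mitochondria, and steroid synthesis in Leydig cells begins in mitochondria.

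The libraries held 28538849 to 41104912 gene counts, of which 732640 to 1032593 fell on mtDNA genes. *Dis3*, the targeted gene, had 4115 to 5161 normalised counts in control and 1362 to 1709 in *Dis3* cKO libraries. The libraries also fell into a pair of clusters that neither the labels nor the methods name, with replicates 1 to 3 of both groups apart from replicates 4 and 5. Deviations from the group mean were correlated between control and *Dis3* cKO libraries. The mean was 0.10 for different numbers of the same cluster and -0.12 across clusters. Within-cluster values are given where they differ. The split was read from these same counts, so fits that use it are descriptions and not independent checks. Of 14 germ cell markers, 6 were called lower in *Dis3* cKO testes (*Dazl*, *Mael*, *Tex101*, *Sohlh1*, *Dmrtb1* and *Uchl1*) and none higher. Their summed level was 870 to 1036 CPM (counts scaled to one common library size) in control and 584 to 778 in *Dis3* cKO libraries, and none of them was at 0 in all libraries. Among markers of other cells, 1 of 10 Sertoli genes (*Rhox8*), 1 of 7 peritubular myoid genes (*Myh11*) and 1 of 6 endothelial genes (*Cdh5*) were called higher. In the other direction, 1 of 8 Leydig genes (*Cyp17a1*) and the only epididymal duct gene tested of 6 (*Defb42*) were called lower. None of 7 stromal, 7 macrophage, 5 tested erythroid or 2 tested adipose genes was called. Over all genes tested, 4.42% were called higher and 3.48% lower. Single calls in such short lists were not read as a change of those cells. What the markers called and the library clusters contributed to the mtDNA results below was not tested. In bulk samples, fewer cells of a type and less RNA per cell cannot be told apart.

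mtDNA genes took 2.11, 2.07, 2.27, 2.89 and 2.77% of all gene counts in control replicates 1 to 5. In *Dis3* cKO replicates 1 to 5 they took 3.29, 2.66, 2.45, 2.98 and 3.01%. The groups overlapped, since control replicates 4 and 5 lay above *Dis3* cKO replicates 2 and 3. The mean share was 2.42 ± 0.382% in control and 2.88 ± 0.327% in *Dis3* cKO testes (SD, n = 5), a difference of 0.456 percentage points that did not pass the exact permutation test (two-sided p = 0.0794, adjusted p = 0.159 over 5 such tests, smallest possible p = 0.00794). When 1 library was left out, the exact permutation test gave unadjusted p values of 0.0397 to 0.167. Only leaving out control replicate 4 gave a p under 0.05. Within the clusters, the share was 2.15% against 2.80% in replicates 1 to 3 and 2.83% against 2.996% in replicates 4 and 5. The 95% Wilson intervals extended at most 0.00655 percentage points to either side of a library's share. These intervals cover counting error only.

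By class, mRNAs held most of these counts. They made up 1.56, 1.57, 1.75, 2.23 and 2.13% of gene counts in the 5 control libraries and 2.67, 2.07, 1.95, 2.41 and 2.23% in the 5 *Dis3* cKO libraries. The groups overlapped here as well, with a difference of 0.420 percentage points (exact permutation test, p = 0.0714, adjusted p = 0.159). With 1 library left out, the unadjusted exact permutation p was 0.0397 to 0.143, and it was under 0.05 only without control replicate 4. The 2 rRNAs took 0.496 to 0.650% in control and 0.491 to 0.773% in *Dis3* cKO libraries. These ranges overlapped, with *Dis3* cKO replicate 5 alone above the highest control library. Of the mtDNA counts themselves, 73.6 to 81.1% were mRNA and 18.5 to 26.1% were rRNA in any library. tRNAs took the smallest part, at 0.00623, 0.00662, 0.00711, 0.00555 and 0.00558% of gene counts in control libraries. In *Dis3* cKO libraries tRNAs took 0.0118, 0.00981, 0.00850, 0.00942 and 0.00836%, above every control value. A single tRNA gene, *mt-Tl1*, held 70.3 to 84.5% of the tRNA counts of any library. It was the only tested tRNA with normalised counts higher in every *Dis3* cKO library than in every control library. The same held for 4.59% of all genes tested.

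**Figure D1:**
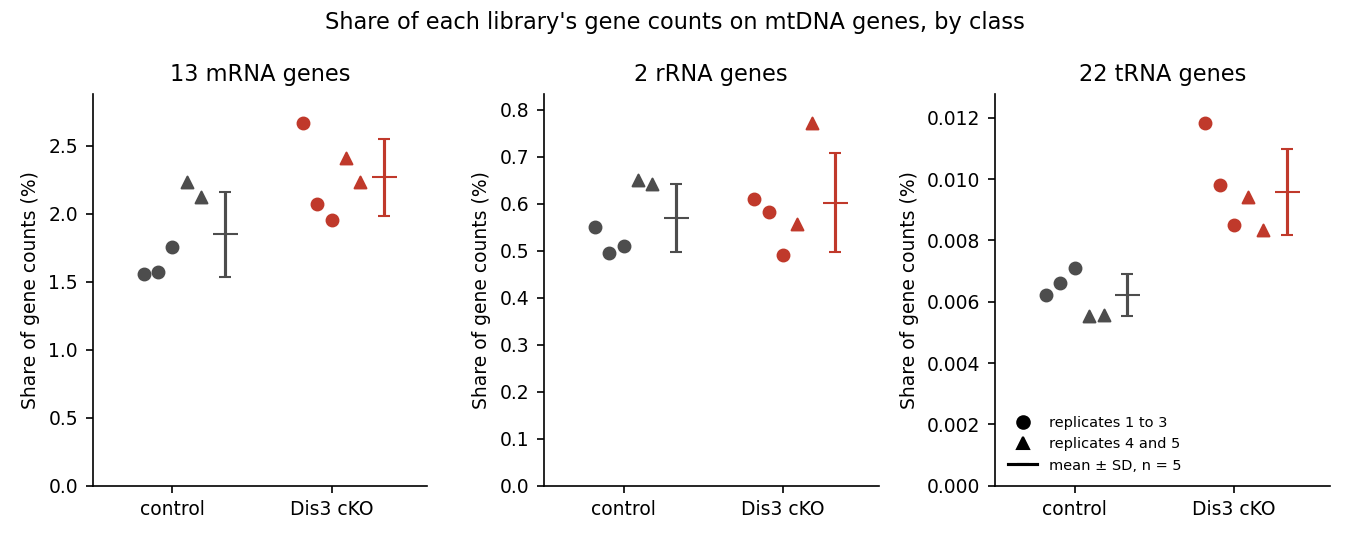
Percent of each library's gene counts (vertical axes) that fell on the 13 mRNA, 2 rRNA and 22 tRNA genes of mtDNA in control and *Dis3* cKO libraries. Each point is 1 library (circle, replicate 1, 2 or 3, and triangle, replicate 4 or 5), and bars give the mean ± SD (n = 5). The groups overlap for mRNAs and rRNAs, while the tRNA shares of *Dis3* cKO libraries (0.00836 to 0.0118%) all lie above those of controls (0.00555 to 0.00711%). Of the tRNA counts in any library, 70.3 to 84.5% came from *mt-Tl1*.

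The level of each gene per length, in CPM per kb, varied widely along the circle. In control testes *mt-Cytb*, the one subunit of complex III encoded here, had the highest level at 3868 ± 721, followed by *mt-Nd1* at 3494 ± 355, *mt-Co1* at 2608 ± 798, *mt-Rnr1* at 2578 ± 800, *mt-Rnr2* at 1972 ± 111, *mt-Nd2* at 1718 ± 147 and *mt-Nd5* at 1591 ± 308 (SD, n = 5). Each of these 7 overlapped its neighbour in that order at mean ± SD. Next came *mt-Nd6* at 875 ± 82.5 and *mt-Nd4* at 715 ± 144, which also overlapped. The other 6 mRNAs were far lower, from 113 ± 18.1 for *mt-Atp8* through *mt-Atp6* (77.4 ± 15.8), *mt-Co2* (63.7 ± 9.71), *mt-Nd4l* (60.6 ± 10.2) and *mt-Co3* (45.0 ± 4.32) to 16.05 ± 1.53 for *mt-Nd3*. Of these 6, *mt-Atp6*, *mt-Co2* and *mt-Nd4l* overlapped in turn and the other neighbours did not. These 6 genes lie side by side on the circle and make up 26.3% of the mRNA length, but they held only 0.937 to 1.04% of mRNA counts in control and 1.01 to 1.07% in *Dis3* cKO libraries.

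The same 6 genes are those whose sequence is repeated almost whole in the nucleus. The mouse genome contains a copy of part of mtDNA on chromosome 1, and the counting did not use reads that aligned to more than one place. Of all 50-base stretches, 100% of those in *mt-Co2*, *mt-Atp8*, *mt-Atp6*, *mt-Co3* and *mt-Nd4l* and 99% of those in *mt-Nd3* occur letter for letter in a nuclear chromosome of the GRCm39 reference. The share was 62.2% for *mt-Nd4*, 51.1% for *mt-Co1*, 8.29% for *mt-Nd2*, 7.61% for *mt-Nd5* and 6.13% for *mt-Rnr2*. It was 0% for *mt-Nd1*, *mt-Nd6*, *mt-Cytb* and *mt-Rnr1*. Levels of the 6 repeated genes, and of *mt-Nd4* and *mt-Co1* in part, therefore count only reads that could be placed at one site. A comparison of such a gene with another gene is uncertain. Comparing the same gene between libraries assumes that the part of its reads that could be placed was alike in each. That assumption was not tested.

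**Figure D2:**
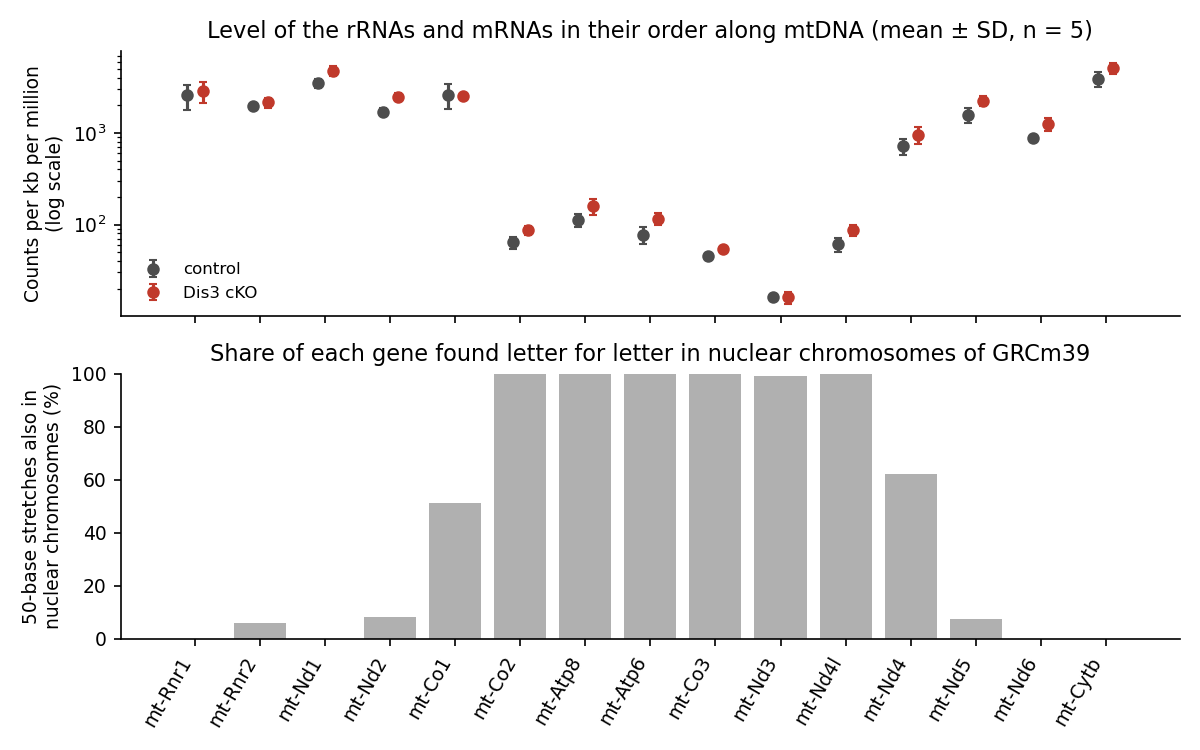
Level of each rRNA and mRNA gene in its order along mtDNA (upper axis, CPM per kb on a log scale, mean ± SD, n = 5, control and *Dis3* cKO) above the percent of its 50-base stretches that also occur in nuclear chromosomes of GRCm39 (lower bars). The 6 genes from *mt-Co2* to *mt-Nd4l*, with 99 to 100% of stretches repeated, have levels of 16.05 to 113 in control, and the others have 715 to 3868.

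The sequences show how little separates a gene from its copy. Transcripts from GENCODE M39 are given from 5′ to 3′, with capitals at each base that differs between a gene and its copy. *mt-Co2* (chrM:7013-7696, plus strand in GRCm38) encodes a subunit of complex IV and is identical to its copy *Gm28661* over all 681 bases compared. *mt-Nd3* (chrM:9459-9806) encodes a subunit of complex I and differs from *Gm28438* in 1 of 345 bases, T3C counted from the first base of the gene. *mt-Co1* (chrM:5328-6872) encodes the catalytic core of complex IV, and the copy *Gm29216* begins at its base 1054. The first bases of that copy hold all 6 differences among 492 bases compared (T1056A, C1057T, A1059G, A1060G, C1062A and A1066T). The first 60 bases of each stretch are shown because they hold every difference found in these 3 pairs.
mt-Co2, bases 1 to 60: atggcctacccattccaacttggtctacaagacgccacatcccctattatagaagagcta
Gm28661, bases 1 to 60: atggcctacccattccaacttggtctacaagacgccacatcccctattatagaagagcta
mt-Nd3, bases 1 to 60: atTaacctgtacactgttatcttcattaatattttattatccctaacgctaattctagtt
Gm28438, bases 1 to 60: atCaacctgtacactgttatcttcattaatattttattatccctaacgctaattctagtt
mt-Co1, bases 1054 to 1113: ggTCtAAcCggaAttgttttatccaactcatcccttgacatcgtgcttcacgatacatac
Gm29216, bases 1 to 60: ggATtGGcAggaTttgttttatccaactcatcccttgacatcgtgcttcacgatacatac

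The other 4 annotated genes of the chromosome 1 copy, *Gm28439* (*mt-Nd4*), *Gm10222* (*mt-Nd4l*), *Gm28437* (*mt-Co3*) and *Atp6-ps* (*mt-Atp6*), had 0 differences over 876, 294, 783 and 678 bases. The 7 copies together held 340 to 444 counts in control and 361 to 483 counts in *Dis3* cKO libraries, against at least 732640 counts on mtDNA genes in every library. None of the 7 was called in either direction in the fit of all libraries with no other term. Their log2 fold changes were 0.14 ± 0.18 (SE) for *Gm28438*, 0.30 ± 0.22 for *Gm28437*, 0.39 ± 0.20 for *Gm28439*, 0.39 ± 0.31 for *Gm10222*, 0.39 ± 0.19 for *Gm29216*, 0.44 ± 0.25 for *Gm28661* and 0.59 ± 0.20 for *Atp6-ps* (edgeR, 5 against 5 libraries). These counts are uncertain, since reads from a gene and from a copy without differences cannot be told apart.

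*Dis3* cKO testes had higher levels of 8 of the 13 mRNAs, and no mRNA was called lower, by edgeR's quasi-likelihood test at an adjusted p under 0.05. Across all 20043 genes tested, 4.42% were called higher and 3.48% lower. The median log2 fold change of the 13 mRNAs was 0.45, and that of all genes tested was -0.01. The mRNAs called comprised 5 of 7 subunits of complex I, 1 of 3 of complex IV and both of ATP synthase, but not the 1 of complex III, which was called in other fits. Of the 6 genes repeated almost whole in the nucleus, 4 were called (*mt-Co2*, *mt-Atp8*, *mt-Atp6* and *mt-Nd4l*), and of the 7 others 4. The median log2 fold change was 0.47 for those 6 and 0.45 for the 7 others. The calls of complex IV and ATP synthase are thus all of repeated genes, counted only from reads placed at one site. At an unadjusted p under 0.05, 11 were higher and 0 lower, where 11.8% of all genes were higher. In 5 of the mRNAs (*mt-Nd1*, *mt-Nd2*, *mt-Atp6*, *mt-Nd5* and *mt-Nd6*) every *Dis3* cKO library lay above every control library, as did 4.59% of all genes tested. The number called changed when single libraries were left out. It fell to 3 without control replicate 1 and to 4 without control replicate 2 or *Dis3* cKO replicate 1. Without *Dis3* cKO replicate 5 it fell to 5. Calls of all genes as higher fell too, from 885 to 521, 516, 773 and 595 in that order. The median log2 fold change of the 13 mRNAs was 0.39 to 0.51 when 1 library was left out. *mt-Nd1*, *mt-Nd2* and *mt-Nd6* were called whichever library was left out.

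Complex I passes electrons from NADH to ubiquinone. Its subunit *mt-Nd2* (chrM:3914-4951) had 56464, 55768, 66424, 65004 and 65767 normalised counts in control replicates and 106894, 85167, 82014, 89367 and 85858 in *Dis3* cKO replicates. Its groups stood clearly apart, with a mean of 61885 ± 5297 (SD, n = 5) against 89860 ± 9874, and with a log2 fold change of 0.54 ± 0.09 (SE, edgeR, adjusted p = 0.00311). *mt-Nd1* (chrM:2751-3707), a membrane subunit near the ubiquinone site, had 102636, 103940, 121483, 126595 and 125510 normalised counts in controls. The 5 *Dis3* cKO libraries had 193805, 148818, 141485, 159131 and 150168. All 5 were above the highest control, and the log2 fold change was 0.45 ± 0.10 (edgeR, adjusted p = 0.0139).

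*mt-Nd6* (chrM:13552-14070) is the only mRNA gene of the minus strand and encodes another membrane subunit of complex I. It had 14125, 14197, 16776, 17263 and 16405 normalised counts in controls and 28594, 20964, 21534, 23536 and 18694 in *Dis3* cKO libraries. The groups did not overlap, and the log2 fold change was 0.52 ± 0.10 (edgeR, adjusted p = 0.00914). *mt-Nd5* (chrM:11742-13565), a large membrane subunit, ranged from 81034 to 121042 normalised counts in controls and from 121730 to 159776 in *Dis3* cKO libraries. Its groups were separated by a narrow margin, and its log2 fold change was 0.50 ± 0.13 (edgeR, adjusted p = 0.0269). *mt-Nd4l* (chrM:9877-10173) overlaps the start of *mt-Nd4* and rose by 0.51 ± 0.12 on the log2 scale (edgeR, adjusted p = 0.0222), from 507 to 743 normalised counts in controls to 731 to 1041. *mt-Nd4* (chrM:10167-11544) had a log2 fold change of 0.42 ± 0.15 that was not called (edgeR, adjusted p = 0.108) but was called with the cluster term (0.44, adjusted p = 0.0218). *mt-Nd3* had 166 to 213 normalised counts in controls and 157 to 230 in *Dis3* cKO libraries, with a log2 fold change of -0.00 ± 0.13 whose sign changed with the scaling (edgeR, adjusted p = 0.995).

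Complex III hands electrons to cytochrome c, and its subunit *mt-Cytb* (chrM:14145-15288) had 127403 to 186864 normalised counts in controls and 169339 to 244308 in *Dis3* cKO libraries. These ranges overlapped, and the log2 fold change of 0.40 ± 0.13 was not called (edgeR, adjusted p = 0.0709), whereas with the cluster of libraries as a term it was 0.42 and called (adjusted p = 0.01035). ATP synthase contains the products of *mt-Atp8* (chrM:7766-7969) and *mt-Atp6* (chrM:7927-8607), which overlap, so that reads across the overlap were not counted. *mt-Atp6* had 1382 to 2273 normalised counts in controls and 2298 to 3361 in *Dis3* cKO libraries, a log2 fold change of 0.58 ± 0.14 (edgeR, adjusted p = 0.0197). *mt-Atp8* rose by 0.49 ± 0.14 on the log2 scale (edgeR, adjusted p = 0.0441), with overlapping groups. Its call was lost when any library other than control replicate 3, *Dis3* cKO replicate 4 or *Dis3* cKO replicate 5 was left out.

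Complex IV, cytochrome c oxidase, passes electrons to oxygen, and 1 of its 3 mRNAs was called. *mt-Co2* had 1319 to 1768 normalised counts in controls and 1695 to 2282 in *Dis3* cKO libraries and was called higher, with a log2 fold change of 0.44 ± 0.11 (edgeR, adjusted p = 0.0242). *mt-Co3* (chrM:8607-9390) had a log2 fold change of 0.25 ± 0.09 that was not called (edgeR, adjusted p = 0.0849) but was called with the cluster term (0.26, adjusted p = 0.0368). *mt-Co1* had 103591, 107983, 117430, 199174 and 170811 normalised counts in control replicates 1 to 5 and 138063, 130131, 121769, 148891 and 134297 in *Dis3* cKO replicates. Control replicates 4 and 5 were the 2 highest of all 10 libraries, while control replicates 1 to 3 were the 3 lowest. Its log2 fold change over all libraries was -0.05 ± 0.16 (edgeR, adjusted p = 0.883).

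**Figure D3:**
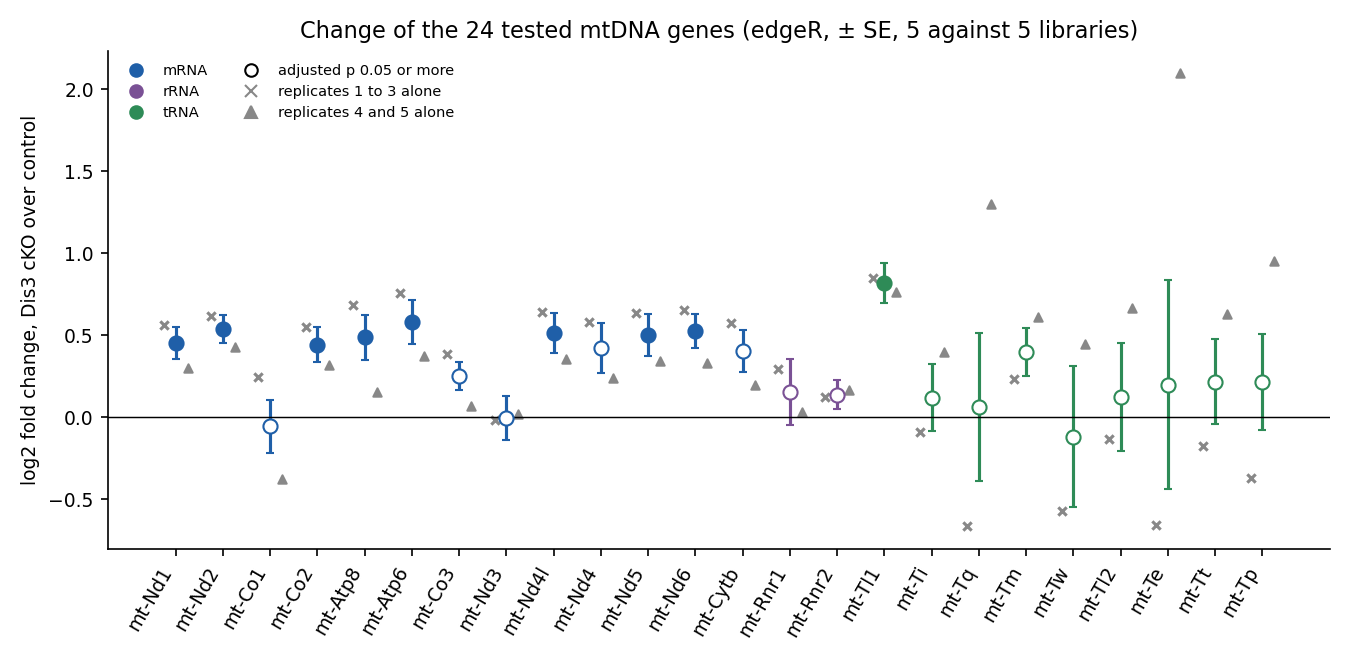
Log2 fold change of *Dis3* cKO over control (vertical axis, ± SE, edgeR, 5 against 5 libraries) for the 13 mRNAs, 2 rRNAs and 9 tested tRNAs, filled where the adjusted p was under 0.05, with grey crosses for replicates 1 to 3 alone and grey triangles for replicates 4 and 5 alone. Of the mRNAs, 8 are filled and above 0, *mt-Tl1* is the only filled tRNA, and *mt-Co1* lies above 0 in one cluster of libraries and below 0 in the other.

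The clusters of libraries differed in the size of these changes. In replicates 1 to 3 alone, 11 of 13 mRNAs were called higher (4.80% of all genes) and the median log2 fold change was 0.58. In replicates 4 and 5 alone, 9 mRNAs were called higher and 1 lower (11.7% of all genes in each direction), and the median was 0.30. With the cluster as a term in the fit of all libraries, 11 were called higher and 0 lower, against 8.84% of all genes called higher. The mRNA called lower in replicates 4 and 5 was *mt-Co1*, with a log2 fold change of -0.38 (edgeR, adjusted p = 0.000144), whereas in replicates 1 to 3 it was 0.24 (adjusted p = 0.0749). The difference between the clusters was not tested.

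In control testes, the mean of *mt-Co1* in replicates 4 and 5 was 1.69 times that in replicates 1 to 3, and the same ratio was 1.06 to 1.42 for the other 12 mRNAs. In *Dis3* cKO testes these ratios were 1.09 for *mt-Co1* and 0.725 to 1.11 for the others. As a share of mRNA counts, *mt-Co1* took 19.9, 20.7, 19.4, 26.0 and 23.5% in controls and 14.7, 17.5, 17.4, 17.4 and 16.9% in *Dis3* cKO libraries. Every *Dis3* cKO library lay below every control library, also within each cluster. This share was chosen after its values were seen, and no test was made of it. *mt-Cytb* took 23.97 to 24.9% of mRNA counts in controls and 24.2 to 26.0% in *Dis3* cKO libraries, a range that overlapped.

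**Figure D4:**
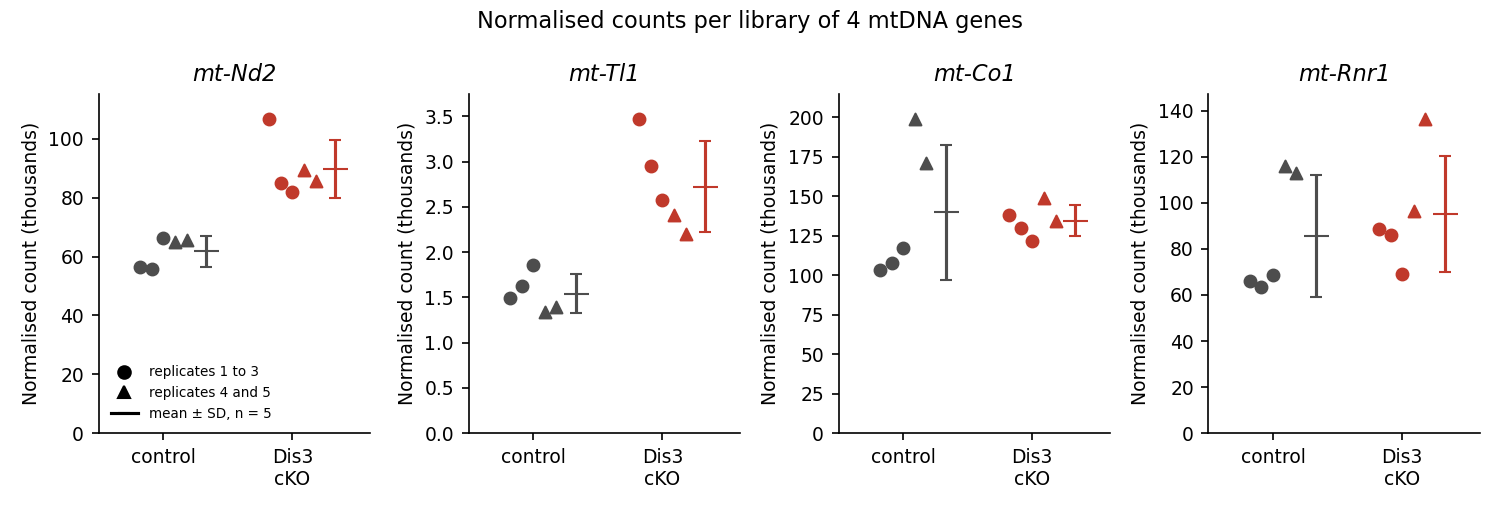
Normalised counts in units of 1000 (vertical axes from 0) of *mt-Nd2*, *mt-Tl1*, *mt-Co1* and *mt-Rnr1* in each library (circle, replicate 1, 2 or 3, and triangle, replicate 4 or 5), with the mean ± SD (n = 5). The groups are apart for *mt-Nd2* (55768 to 66424 against 82014 to 106894) and *mt-Tl1* (1335 to 1863 against 2195 to 3473) and overlap for *mt-Co1* and *mt-Rnr1*, for which control replicates 4 and 5 stand above control replicates 1 to 3.

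The 2 rRNAs form the core of the mitochondrial ribosome, *mt-Rnr1* (chrM:70-1024) in its small and *mt-Rnr2* (chrM:1094-2675) in its large subunit. Ribosomal RNA was depleted during library preparation, so their counts are what depletion left, and the share removed in each library was not measured here. *mt-Rnr1* had 65991, 63648, 68800, 115779 and 112954 normalised counts in controls and 88465, 86187, 68874, 96339 and 136502 in *Dis3* cKO libraries. The 4 libraries of replicates 4 and 5 were the highest of all 10. In controls the mean was 66146 in replicates 1 to 3 and 114367 in replicates 4 and 5. *mt-Rnr2* had 118363, 101889, 107298, 106734 and 106834 normalised counts in controls and 126523, 122661, 107223, 100769 and 138049 in *Dis3* cKO libraries. Neither was called, with log2 fold changes of 0.16 ± 0.20 for *mt-Rnr1* (edgeR, adjusted p = 0.695) and 0.14 ± 0.09 for *mt-Rnr2* (edgeR, adjusted p = 0.380). At an unadjusted p under 0.05 the count in this fit was also 0, and DESeq2 called 0. In replicates 1 to 3 alone and without *Dis3* cKO replicate 4, 1 rRNA had an unadjusted p under 0.05. By cluster, *mt-Rnr1* had log2 fold changes of 0.30 in replicates 1 to 3 and 0.03 in replicates 4 and 5 (edgeR, adjusted p = 0.0750 and 0.854). Those of *mt-Rnr2* were 0.12 and 0.17 (edgeR, adjusted p = 0.432 and 0.172). The ratio of *mt-Rnr1* to *mt-Rnr2* counts was 0.558 to 0.641 in control replicates 1 to 3 and 1.085 and 1.06 in control replicates 4 and 5. In *Dis3* cKO testes it was 0.642 to 0.703 and then 0.956 and 0.989.

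On the log2 scale, the ratio of rRNA to mRNA counts was -1.69 ± 0.12 in control and -1.92 ± 0.25 in *Dis3* cKO testes (SD, n = 5). The difference of -0.23 did not pass the exact permutation test (p = 0.0952, adjusted p = 0.159). Without *Dis3* cKO replicate 5 the difference was -0.33 (exact permutation p = 0.00794, unadjusted, the smallest possible there). Leaving out any other library gave exact permutation p values up to 0.198, none under 0.05. Within the clusters the difference was -0.34 in replicates 1 to 3 and -0.07 in replicates 4 and 5. *Dis3* cKO replicate 5 also had the highest rRNA share of all libraries, at 0.773% of gene counts.

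Among tRNAs, only *mt-Tl1* was called, and it was higher in *Dis3* cKO testes. tRNAs are short and strongly folded, and a read that touched a neighbouring gene on the same strand was not counted. Counts of tRNA genes do not tell mature tRNA from precursor. The filter on low counts passed 9 of 22 tRNAs. The other 13 had a mean of at most 9.70 counts per library. Among the 22, 9 have 100% of their 50-base stretches in nuclear chromosomes (*mt-Tw*, *mt-Tn*, *mt-Ty*, *mt-Ts1*, *mt-Td*, *mt-Tk*, *mt-Tg*, *mt-Th* and *mt-Te*), so that their reads could rarely be placed and their counts set no limit on their RNA. *mt-Ty* is listed at 0 in every library.

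*mt-Tl1* carries leucine and lies between *mt-Rnr2* and *mt-Nd1* with no base between them (chrM:2676-2750, plus strand). *mt-Tm* carries methionine and lies directly before *mt-Nd2* (chrM:3845-3913). Both are shown because they have the highest counts of the tRNAs, and none of their 50-base stretches occurs in a nuclear chromosome. In the first line *mt-Tl1* is in capitals, after the last 20 bases of *mt-Rnr2* and before the first 20 of *mt-Nd1* (chrM:2656-2770), in GENCODE M39 sequence.
mt-Tl1 with its neighbours: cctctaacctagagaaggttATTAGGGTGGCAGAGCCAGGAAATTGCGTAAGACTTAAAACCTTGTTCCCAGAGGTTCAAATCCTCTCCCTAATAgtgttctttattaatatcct
mt-Tm: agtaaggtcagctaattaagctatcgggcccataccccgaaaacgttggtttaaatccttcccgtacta

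*mt-Tl1* had 1489, 1629, 1863, 1335 and 1396 normalised counts in controls and 3473, 2949, 2575, 2414 and 2195 in *Dis3* cKO libraries. Every *Dis3* cKO library was above every control library, and the log2 fold change was 0.82 ± 0.12, or 1.76-fold (edgeR, adjusted p = 0.00210). The call held in each cluster alone, with log2 fold changes of 0.85 in replicates 1 to 3 and 0.76 in replicates 4 and 5 (edgeR, adjusted p = 0.000905 and 1.29e-06), and whichever library was left out. For each 1000 counts of its neighbour *mt-Nd1* there were 14.5, 15.7, 15.3, 10.5 and 11.1 counts of *mt-Tl1* in controls and 17.9, 19.8, 18.2, 15.2 and 14.6 in *Dis3* cKO libraries. These values overlapped between groups over all libraries and did not overlap within either cluster. *mt-Tl1* made up 70.3 to 75.9% of all tRNA counts in controls and 72.4 to 84.5% in *Dis3* cKO libraries.

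*mt-Tm*, the next in count, had 262, 187, 252, 253 and 223 normalised counts in controls and 307, 274, 245, 409 and 315 in *Dis3* cKO libraries. The groups overlapped, and its log2 fold change of 0.40 ± 0.15 was not called (edgeR, adjusted p = 0.112). The tRNAs for threonine and isoleucine, *mt-Tt* (chrM:15289-15355) and *mt-Ti* (chrM:3706-3774), came next. *mt-Tt* had 72.2 to 104 normalised counts in controls and 55.9 to 159 in *Dis3* cKO libraries, with a log2 fold change of 0.22 ± 0.26 (edgeR, adjusted p = 0.670). *mt-Ti* had 67.1 to 107 and 68.4 to 116, with 0.12 ± 0.20 (edgeR, adjusted p = 0.780). The other 5 tested tRNAs, at 0 to 109 normalised counts, were not called. In replicates 4 and 5 alone, *mt-Tm* (log2 fold change of 0.61, adjusted p = 0.0126) and *mt-Tp* (0.95, adjusted p = 0.0457) were called higher too (edgeR). That fit called 11.7% of all genes higher. In replicates 1 to 3 alone, their log2 fold changes were 0.24 and -0.37, and neither was called (edgeR, adjusted p = 0.408 and 0.510).

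Summed over all tRNA genes, the log2 ratio of tRNA to mRNA counts was -8.20 ± 0.38 in control and -7.89 ± 0.14 in *Dis3* cKO testes (SD, n = 5), a difference of 0.32 that did not pass the exact permutation test (p = 0.135, adjusted p = 0.167). Taken by cluster, the difference was 0.14 in the first 3 replicates and 0.58 in the others. Without control replicate 4 it was 0.20, the smallest of 0.20 to 0.40 when 1 library was left out. For strands, the log2 ratio of *mt-Nd6* to the other 12 mRNAs was -5.27 ± 0.16 in control and -5.12 ± 0.16 in *Dis3* cKO testes. The difference of 0.15 did not pass either (exact permutation p = 0.167, adjusted p = 0.167). Within replicates 1 to 3 it was 0.13, and within replicates 4 and 5 it was 0.18.

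Nuclear genes that serve mtDNA or build the same complexes were read from the same fit, as lists that were chosen with earlier results of these data known. Apart from the chromosome 1 copies, 5 lists were read. None of their genes was called higher and 8 were called lower, where 3.48% of all genes were. Of 37 nuclear subunits of complex I, 33 had a log2 fold change below 0, the median was -0.14 and 1 was called. This was *Ndufs8*, an iron-sulphur subunit, with -0.36 ± 0.08 (edgeR, adjusted p = 0.0170). Of 34 tested nuclear subunits of complexes III to V, 31 were below 0, the median was -0.17 and *Cox5a* of complex IV was called, with -0.32 ± 0.08 (edgeR, adjusted p = 0.0257).

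Among 25 genes of mtDNA transcription and maintenance, with a median of -0.10, *Tefm* was called. It encodes the elongation factor of mitochondrial transcription and fell by 0.45 ± 0.09 on the log2 scale, from 430 ± 30.2 to 314 ± 12.2 normalised counts (SD, n = 5, edgeR, adjusted p = 0.00822). Of 31 genes that process or modify mitochondrial RNA, 27 were below 0 with a median of -0.16, and 4 were called. Most genes of that list act on tRNA, and so do these. *Elac2* cuts tRNA precursors at their 3′ ends (log2 fold change of -0.31, edgeR, adjusted p = 0.0391). *Trmt10c* belongs to the enzyme that cuts at the 5′ ends (-0.45, edgeR, adjusted p = 0.0367). *Trnt1* adds CCA to tRNAs (-0.41, edgeR, adjusted p = 0.0363). *Trmt5* methylates tRNAs beside the anticodon (-0.47, edgeR, adjusted p = 0.0108). *Elac2*, *Trnt1* and *Trmt5* also act on tRNAs outside mitochondria. All 11 genes of mitochondrial RNA decay and the FASTK family were below 0, with a median of -0.19. *Fastkd2*, whose product binds *mt-Rnr2* RNA, was called with -0.38 ± 0.11 (edgeR, adjusted p = 0.0497).

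These 8 calls depended on the fit, as did the number of all genes called lower. List counts in the other fits also cover the chromosome 1 copies and were not split by list. With the cluster of libraries as a term, 33 genes were called lower and 1 higher, while 8.33% of all genes were called lower. DESeq2 called 16, all lower, and 926 of all 45971 genes fitted lower. Those 45971 include genes of very low count, some with no adjusted p, so that share is not comparable with the others. When 1 library was left out, 3 to 18 were called, beside 366 to 806 of all 20297 to 20594 genes tested called lower. The number was 3 without control replicate 1, *Dis3* cKO replicate 1 or *Dis3* cKO replicate 5, 4 without control replicate 4, 5 without control replicate 5 or *Dis3* cKO replicate 2, and 18 without control replicate 3. Replicates 4 and 5 alone called 50 lower and 4 higher, where 11.7% of all genes were called in each direction.

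**Figure D5:**
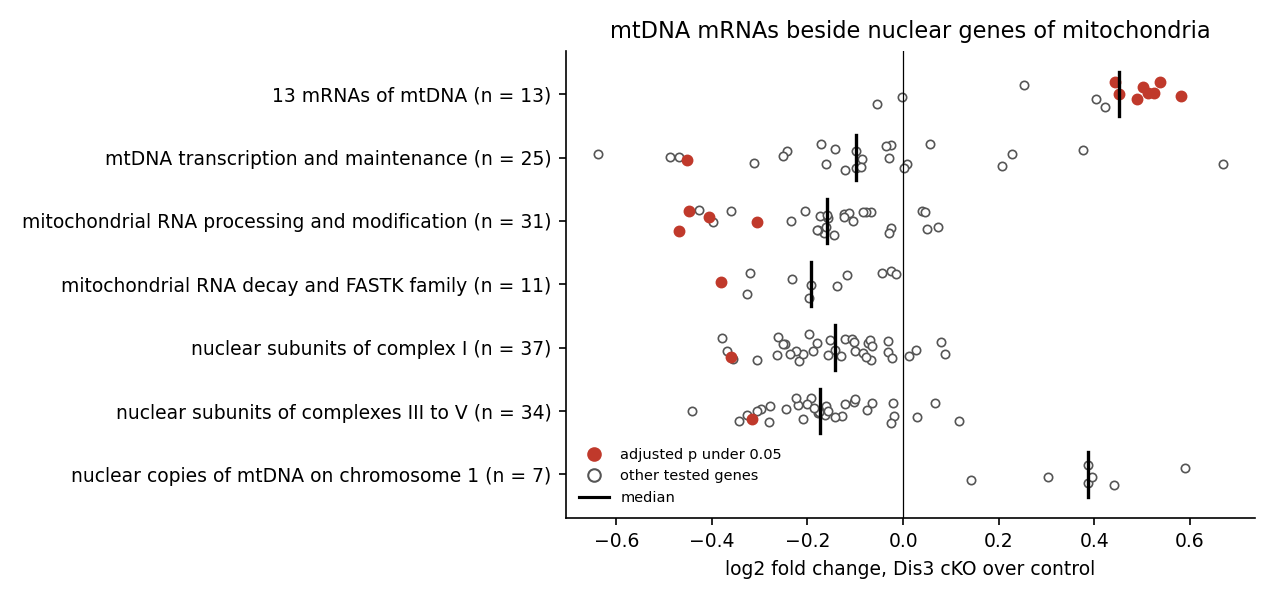
Log2 fold change of *Dis3* cKO over control (horizontal axis, edgeR) for the 13 mRNAs of mtDNA and the tested genes of 6 lists of nuclear genes, 1 point per gene, filled red where the adjusted p was under 0.05, with the median as a black bar. The median is 0.45 for the 13 mRNAs, from -0.19 to -0.10 for the 5 lists of mitochondrial genes of the nucleus, and 0.39 for the 7 copies on chromosome 1, none of which is filled.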

How the data were processed

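Strand-specific libraries were made from the testes of each mouse by priming at random and at poly(A), and AnyDeplete was used to remove ribosomal RNA. Adaptor trimming (cutadapt), alignment (HISAT2) and counting (featureCounts) were done by the authors. The deposited table holds raw counts per gene, and its header names featureCounts 1.6.4, sense-strand counting and GENCODE M18. The labels name GRCm38.p5, whereas the methods name a later build. By the header's settings, reads aligned to several places or overlapping 2 genes were not counted. This lowers counts of genes that have a nuclear copy or that overlap a neighbour. The second deposited table, of regions upstream of genes, has 0 regions on mtDNA and was not used. Positions of all 37 genes are the same in GENCODE M39 and in RefSeq GRCm38.p6. Names of other genes came from GENCODE M39 by ID and covered 98.96% of counts.

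The 28538849 to 41104912 gene counts per library were tested with edgeR 4.0.16 in R 4.3.3. Genes passed filterByExpr at its defaults (min.count of 10), were scaled by TMM and tested with the quasi-likelihood test, with no other term and with Benjamini-Hochberg adjustment over all 20043 genes. Normalised counts are counts scaled to the mean library. Alternatives were DESeq2 1.42.0, other scalings, no filter, the replicate number, the cluster of libraries, and fewer libraries. For shares and ratios, library values were compared by an exact permutation test (two-sided, difference between the group means).

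Named were all mRNAs and rRNAs, tRNAs that were called or among the 4 with the highest mean count, in each list the called genes, 4 at most, in order of adjusted p, and all 7 annotated copies on chromosome 1. Marker genes that were called are named too. Members and lists were chosen with earlier results of these data known.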

Additional observations from a re-analysis of the deposited data

Results flagged for a closer look

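Of 78 groups of 5 library values examined for a value far from the others of its group, at a confidence of 95%, 1 was singled out. In *Dis3* cKO replicate 1, *mt-Co1* took 14.7% of mtDNA mRNA counts, while the other 4 *Dis3* cKO libraries lay between 16.9 and 17.5%. The gap was 0.793 of the range of the group. By chance, about 5% of such groups are singled out. The same library had the highest normalised counts of *mt-Nd1*, *mt-Nd2*, *mt-Nd6* and *mt-Tl1* and the largest mtDNA share (3.29%) of all 10 libraries. Without it, 4 mRNAs were called higher, beside 773 of all 20437 genes tested in that fit.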

How the results depend on the processing

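No alternative called a tRNA lower or an rRNA in either direction, and the median of the 13 mRNAs was positive in each, from 0.30 to 0.58. mRNAs called higher numbered 8 to 11 in the fits that kept whole groups or clusters and 3 to 8 when 1 library was left out. Of all genes, these fits called 768 to 2361 and 516 to 1173 higher. Replicates 4 and 5 alone called 1 mRNA lower and 3 tRNAs higher. List genes called, chromosome 1 copies included, numbered 16 with DESeq2, 15 without the filter and 34 with the cluster term. They numbered 54 in replicates 4 and 5 alone (4 higher and 50 lower) and 3 to 18 when 1 library was left out. Of all genes, 926 of 45971, 750 of 45971, 1669 of 20043, 2360 of 20162 and 366 to 806 of 20297 to 20594 were called lower in these fits. The 45971 genes include those of low count that the filter removed in the other fits. Leaving out 1 library gave differences of 0.353 to 0.572 percentage points for the mtDNA share, 0.319 to 0.517 for the mRNA share, 0.20 to 0.40 for the log2 tRNA to mRNA ratio and -0.33 to -0.18 for the log2 rRNA to mRNA ratio. Of 342 values of 19 named members under alternatives, 328 kept their direction. The exceptions were *mt-Co1* (0.24 in replicates 1 to 3, and -0.14 to 0.11 when 1 library was left out), *mt-Nd3* (0.0092 with DESeq2, 0.023 with upper quartile factors, 0.023 in replicates 4 and 5, and -0.070 to 0.064), *mt-Ti* (-0.087) and *mt-Tt* (-0.18) in replicates 1 to 3, and *mt-Rnr1* (-0.0082 to 0.29). The cause of these changes was not tested.

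With the replicate number as a block, 10 mRNAs were called higher and 0 lower. Of list genes, chromosome 1 copies included, 30 were called, all lower. That fit called 1489 of all 20043 genes higher and 1337 lower. *mt-Cytb* (adjusted p = 0.0290) and *mt-Nd4* (adjusted p = 0.0388) were among the 10 by edgeR, and DESeq2 and the fit without the filter also called both. Whether the numbers pair the samples was not settled. Correlations of deviations between same-numbered libraries were 0.0959, 0.0826, 0.183, 0.182 and 0.135. Their comparators were means of 0.10 for different numbers of the same cluster and -0.12 across clusters. Of 5 replicates, 3 correlated best with their own number. At these depths, tRNAs of a few counts per library could show only very large differences.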
